A study of Mus musculus with 2 samples.

Results

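Postsynaptic scaffolds and synaptic adhesion proteins are described here from ribosome footprints of neonatal mouse brain. The 32 genes were taken from a list of names and not by a rule on their counts, but the list was chosen with earlier results of these data known. All 32 were found among the 45578 genes of the deposited table. The material was whole brain at postnatal day 5 (P5) from control mice of the Taiwanese spinal muscular atrophy line on a congenic FVB background, genotype Smn+/-; SMN2tg/0. These mice keep 1 intact copy of the mouse Smn gene and carry the human SMN2 transgene. RiboLace, a pull-down that captures ribosomes engaged in translation, was applied to nuclease-digested brain lysate, and protected fragments of 25 to 35 nucleotides were sequenced. The series has 1 group with 2 libraries, called biological replicates in the labels, and no other genotype, stage or total RNA sample to compare with. The series text speaks of a single mouse, and whether the replicates were separate animals is not stated, so their spread may be partly technical.

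At an excitatory synapse, presynaptic neurexins bind postsynaptic neuroligins and leucine-rich repeat proteins across the cleft. Behind the postsynaptic membrane, membrane-associated guanylate kinases of the Dlg family hold receptors and adhesion proteins through PDZ domains, and layers of Dlgap, Shank and Homer proteins link them to the actin cytoskeleton and to internal calcium stores. Inhibitory synapses use gephyrin in place of these scaffolds. Synapses of the forebrain are still forming in the first postnatal week. A footprint level holds the amount of a messenger RNA and how heavily it is translated together, and in whole brain fewer cells of a type and less RNA per cell cannot be told apart.

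Replicate 1 held 343552 counts over all genes, with each gene represented by its isoform of highest count, and replicate 2 held 120282, which is 2.86 times fewer. The 32 genes held 1032 counts in replicate 1 and 307 in replicate 2. These were 0.300% of replicate 1 (95% Wilson interval 0.283 to 0.319) and 0.255% of replicate 2 (0.228 to 0.285). The share was thus lower in replicate 2. These intervals overlapped only between 0.283 and 0.285, and the difference in share was not tested. Intervals here cover counting error only: the libraries were amplified by PCR, and whether copied reads were collapsed to single molecules is not given in the sources used here. Neuronal markers held 0.814% and 0.806% of counts. Genes that mark astrocytes and radial glia held 0.522% and 0.491%, those of the oligodendrocyte lineage 0.084% and 0.088%, of microglia 0.031% and 0.029%, of endothelium 0.020% and 0.027%, and of red blood cells 0.410% and 0.385%. The neuronal markers of the labelled tissue were thus present in both libraries, all 10 of them past the count filter.

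Most of the genes had more footprints per coding length than the median coding gene, and few reached the level of the well-covered coding genes of this tissue. Levels between genes are compared as footprint density, counts scaled to the library size (CPM) divided by the coding length in kilobases. The median density of the 32 genes was 24.1 CPM per kilobase in replicate 1 and 16.4 in replicate 2, and the median of their mean densities was 19.0. The median over all 20757 coding genes was 5.09, and 29 of the 32 genes lay above it. The median of the 32 stood at percentile 71.3 of all coding genes. The 4294 coding genes that averaged at least 10 counts over both libraries had a median of 62.3, and among these the same value stood at percentile 12.1. That comparison is uneven, because the 32 genes include some under this limit of counts. The median over the 21 that reached it was 34.4, still below 62.3. Only Nrgn, Lrrc4b and Nrxn2 exceeded the median of 62.3, and they also exceeded the median of each library, 63.0 and 60.7. Nlgn2 and Dlg4, at 62.0 and 61.9, lay just under 62.3. The Poisson intervals of Nrxn2 in both libraries and of Lrrc4b in replicate 1 held the library median. Apart from Nrgn, this cut is therefore not resolved gene by gene. The 32 genes were long: their median coding length was 2535 nucleotides, against 1398 for the coding genes past this count filter, and 28 of the 32 exceeded the latter.

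The count filter was passed by 21 of the 32 genes, or 65.6%, against 20.7% of all 20757 coding genes. The other 11 were Lrrtm2, Nlgn1, Dlgap1, Homer3, Iqsec2, Grip1, Sipa1l1, Gripap1, Dlg1, Dlgap2 and Homer2. They had between 2 and 14 counts in replicate 1 and between 0 and 5 in replicate 2, so their levels are known only within wide limits. In order of mean density, each gene was set against the next in the order, 31 pairs in all. In only 1 pair, Nrgn and Lrrc4b, did the exact 95% interval of the density ratio exclude 1 in both libraries. The order is therefore resolved in broad steps and not gene by gene. Across the 32 genes, which include the 11 below the filter, the densities of the 2 libraries had a Spearman rho of 0.81. Over the 4294 filtered coding genes it was 0.92, so the 2 values cover unlike sets. The points of each share the same pair of libraries.

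**Figure D1:**
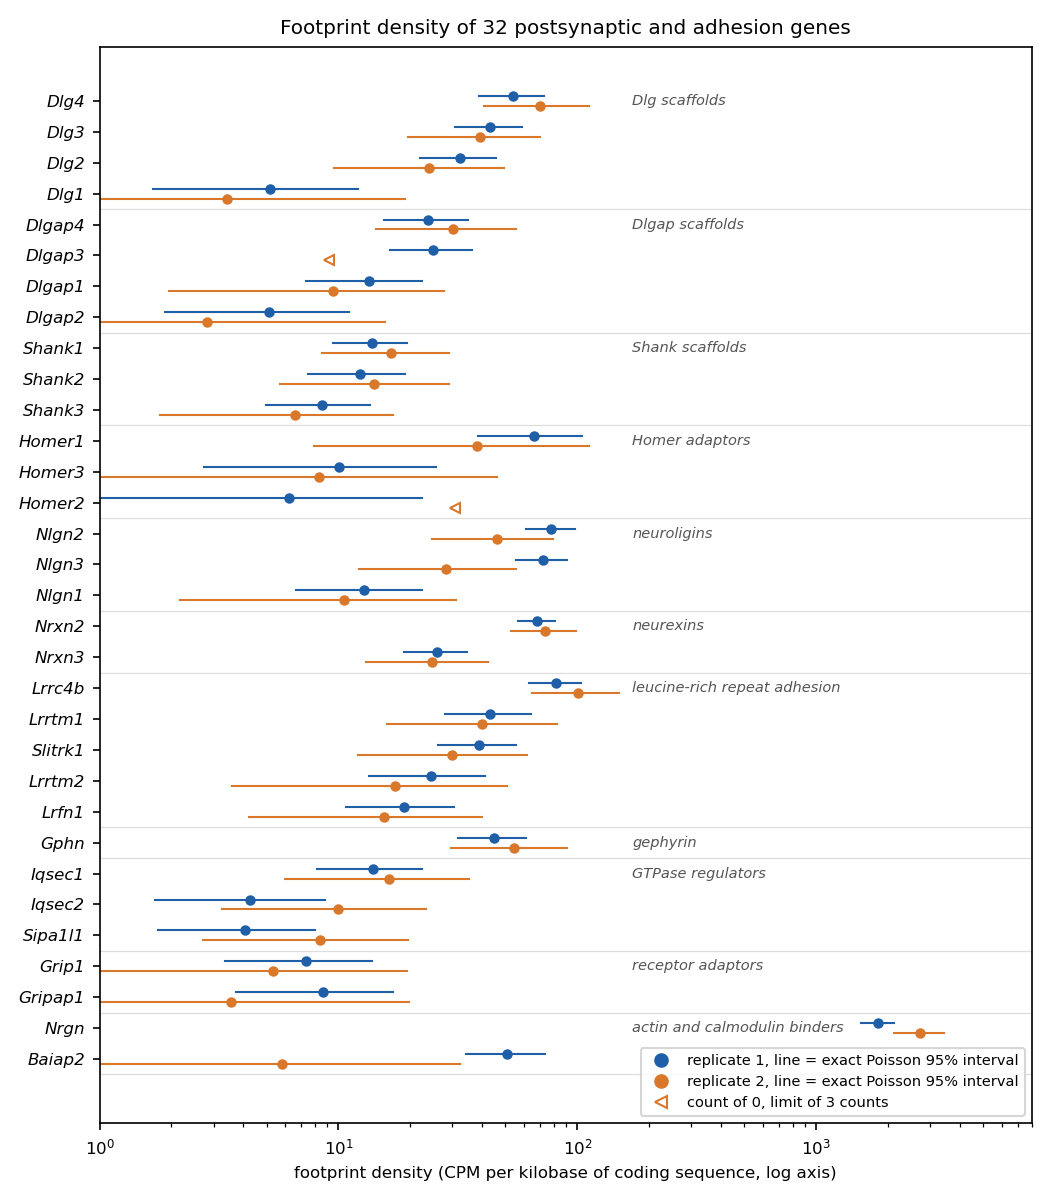
Footprint density of each gene (CPM per kilobase of coding sequence, log axis) in replicate 1 (blue) and replicate 2 (orange), grouped by role, with exact Poisson 95% intervals cut off at the left edge of the axis. Nrgn stands apart at 1807 and 2713, and open triangles mark the 2 genes with a count of 0 in replicate 2 at the limit that 3 counts set.

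Neurogranin stood far above all other genes of the set. Nrgn (ENSMUSG00000053310) encodes a small postsynaptic protein that binds calmodulin when calcium is low. Its coding sequence is 237 nucleotides, the shortest of the set, in a transcript of 1453. Its counts were 158 in replicate 1 and 72 in replicate 2, which correspond to 428 and 643 CPM. Its density was 1807 CPM per kilobase in replicate 1 (95% interval 1536 to 2111) and 2713 in replicate 2 (2123 to 3416), with a mean of 2260 ± 641 (SD, n = 2). This put it at percentile 99.5 of the filtered coding genes. The ratio to Lrrc4b, the next gene, was 22.2 in replicate 1 (exact interval 16.5 to 30.1) and 27.0 in replicate 2 (16.8 to 44.8). A density per coding length assigns all fragments to the coding sequence, which overstates a short reading frame with long untranslated regions. Over the whole transcript Nrgn still led with 369 CPM per kilobase, ahead of Lrrc4b with 71.1, so its first place did not rest on the choice of length. Nrgn alone held 15.3% of the counts of the set in replicate 1 and 23.5% in replicate 2.

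Neurexins are presynaptic adhesion receptors whose genes make a long alpha and a short beta form from separate promoters. Nrxn2 (ENSMUSG00000033768) had 128 and 42 counts on its highest isoform, with a coding sequence of 5112 nucleotides. Its density was 67.9 CPM per kilobase in replicate 1 (56.6 to 80.7) and 73.4 in replicate 2 (52.9 to 99.2), with a mean of 70.6 ± 3.90 (SD, n = 2). Nrxn3 (ENSMUSG00000066392) had 45 and 13 counts and densities of 25.9 (18.9 to 34.6) and 24.6 (13.1 to 42.1). Nrxn2 was thus denser than Nrxn3 by 2.62 times in replicate 1 (exact interval 1.85 to 3.77) and 2.98 times in replicate 2 (1.57 to 6.05), with both intervals above 1.

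Neuroligins are the postsynaptic partners of neurexins, with Nlgn1 known from excitatory and Nlgn2 from inhibitory synapses and Nlgn3 from both. Nlgn2 (ENSMUSG00000051790) had 72 and 13 counts, or densities of 77.7 (60.8 to 97.9) and 46.2 (24.6 to 79.1). Nlgn3 (ENSMUSG00000031302) had 67 and 8 counts, or 71.5 (55.4 to 90.9) and 28.1 (12.2 to 55.5). Nlgn1 had only 12 and 3 counts, or 12.8 (6.64 to 22.4) and 10.6 (2.18 to 30.9). Nlgn1 lay below Nlgn2 in both libraries, at 0.17 times its density in replicate 1 (0.082 to 0.31) and 0.23 times in replicate 2 (0.042 to 0.83). Nlgn2 and Nlgn3 were not resolved from each other, with ratios of 1.09 (0.77 to 1.54) and 1.64 (0.63 to 4.57). Both had lower point values in replicate 2 than in replicate 1.

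The 5 leucine-rich repeat genes encode postsynaptic adhesion proteins, several of which bind neurexins or receptor-type tyrosine phosphatases on the presynaptic side. Lrrc4b (ENSMUSG00000047085), also called NGL-3, led them with 64 and 24 counts and densities of 81.4 (62.7 to 104) and 101 (64.5 to 150), or 91.0 ± 13.6 (SD, n = 2). Lrrtm1 had 25 and 7 counts, Slitrk1 30 and 7, Lrrtm2 14 and 3, and Lrfn1 16 and 4. Their mean densities ran from 41.5 for Lrrtm1 through 34.4 for Slitrk1 and 20.9 for Lrrtm2 to 17.2 for Lrfn1. Lrrc4b exceeded each of these 4 genes with intervals that excluded 1 in both libraries. Its ratio to Slitrk1 was 2.09 (1.34 to 3.35) and 3.37 (1.41 to 9.25). Among the other 4, no pair was resolved in both libraries per coding length. Lrrtm1 did exceed Lrrtm2 per kilobase of whole transcript, with intervals of the ratio above 1 in replicate 1 (1.99 to 8.28) and replicate 2 (1.19 to 31.2). The Lrrtm2 transcript has 5665 nucleotides and that of Lrrtm1 2541, so whether this pair was resolved depends on the length used.

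Among the Dlg scaffolds, Dlg4, Dlg3 and Dlg2 were measured well enough to compare, and Dlg1 was far lower than Dlg4 and Dlg3. Dlg4 (ENSMUSG00000020886) encodes PSD-95, the main scaffold of mature excitatory synapses, and Dlg3 encodes SAP102, known for its prominence in young synapses. Dlg4 had 43 and 17 counts, or densities of 53.8 (38.9 to 72.5) and 70.1 (40.8 to 112). Dlg3 (ENSMUSG00000000881) had 40 and 11 counts, or 43.2 (30.9 to 58.9) and 39.2 (19.6 to 70.1). The ratio of Dlg3 to Dlg4 was 0.80 in replicate 1 (0.51 to 1.27) and 0.56 in replicate 2 (0.24 to 1.26). Both intervals held 1, so these counts do not resolve which was denser at P5, and they leave room for a Dlg3 density up to 1.26 times that of Dlg4. Dlg2, which encodes PSD-93, had 31 and 7 counts and lay below Dlg4, at 0.60 times its density (0.36 to 0.97) and 0.34 times (0.12 to 0.87), a difference that was lost on the isoforms of longest coding sequence, with 0.88 (0.52 to 1.4998) and 0.69 (0.22 to 2.07). Dlg1, which encodes SAP97, had 5 and 1 counts and stood at 0.096 times the density of Dlg4 in replicate 1 (0.030 to 0.24) and 0.049 times in replicate 2 (0.0012 to 0.31). Against Dlg2, Dlg1 stood at 0.16 times (0.049 to 0.42) and 0.14 times (0.0032 to 1.11), so that pair was not resolved in replicate 2.

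Dlgap proteins join the Dlg scaffolds to Shank. Dlgap4 had 26 and 10 counts, or densities of 23.7 (15.5 to 34.8) and 30.1 (14.4 to 55.3). Dlgap1 had 14 and 3 counts and Dlgap2 had 6 and 1. Dlgap2 was the least dense of the family in replicate 1 and lay below Dlgap4 in both libraries, at 0.22 times (0.072 to 0.53) and 0.093 times (0.0022 to 0.66), a difference that was lost on the isoforms of longest coding sequence in replicate 2, with 0.26 (0.085 to 0.65) and 0.19 (0.0040 to 1.67). Dlgap3 had 27 counts in replicate 1, a density of 24.9 (16.4 to 36.3), and none in replicate 2, where a count of 0 allows a density of up to 9.13. Its place in the family therefore differs by library: level with Dlgap4 in replicate 1, with a ratio of 1.05 (0.59 to 1.87), and below it in replicate 2 with a ratio of up to 0.45. On the isoforms of longest coding sequence that upper limit was 1.11, so the difference from Dlgap4 was lost.

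Shank proteins form the lattice beneath the Dlgap layer. All 3 were long and sparsely covered. Shank1 had 33 and 12 counts over 6477 coding nucleotides, or densities of 13.8 (9.50 to 19.4) and 16.5 (8.55 to 28.9). Shank2 had 20 and 7 counts, or 12.3 and 14.2, and Shank3 had 17 and 4, or 8.50 and 6.59. The order Shank1, Shank2, Shank3 was the same in both libraries, but every ratio between them had an interval that held 1 in both. The widest, Shank1 over Shank3, was 1.62 (0.88 to 3.11) and 2.51 (0.76 to 10.7). Per kilobase of whole transcript this ratio was 2.21 (1.19 to 4.23) and 3.41 (1.03 to 14.5), with both intervals above 1. That measure is uneven here, because the Shank1 isoform used has no annotated untranslated regions. The Shank3 transcript has 7365 nucleotides for 5418 coding ones. Shank1-001, a transcript of 7605 nucleotides, had 33 and 11 counts, and the ratio was not computed on it, so the pair is not taken as resolved.

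Homer proteins tie Shank to metabotropic glutamate receptors and to calcium release channels. Homer1 had 17 and 3 counts, Homer3 4 and 1, and Homer2 2 and 0. On the isoforms of highest count, Homer1 was denser in replicate 1 than Homer3 by 6.54 times (2.13 to 26.7) and than Homer2 by 10.6 times (2.51 to 94.3). On the isoforms of longest coding sequence these ratios were 1.21 (0.26 to 6.11) and 4.78 (0.54 to 226). Both intervals held 1, so neither difference per coding length is established. Replicate 2 was too shallow to resolve either pair on these isoforms. Per kilobase of whole transcript, on the isoforms of highest count, Homer1 over Homer2 was 36.3 in replicate 1 (8.61 to 324). Its lower limit in replicate 2 was 1.76, with a Homer2 transcript of 10982 nucleotides that held 2 and 0 counts. Homer1 over Homer3 was 4.04 (1.32 to 16.5) and 2.85 (0.23 to 150) by that measure, and the second interval held 1.

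Gephyrin, the scaffold of glycine and GABA-A receptors, lay among the denser scaffolds. Gphn (ENSMUSG00000047454) had 38 and 14 counts, or densities of 44.6 (31.5 to 61.2) and 54.1 (29.6 to 90.8), and its mean of 49.3 lay between those of Dlg4 and Dlg3. The regulators of small GTPases were low. Iqsec1, an exchange factor for Arf proteins, had 17 and 6 counts and a mean density of 15.1. Its paralog Iqsec2 had 7 and 5 counts, and Sipa1l1, a GTPase-activating protein for Rap also called SPAR, had 8 and 5. The receptor adaptors Grip1, which binds AMPA receptors, and Gripap1, which binds Grip1, had 9 and 2 and 8 and 1 counts. Baiap2 encodes IRSp53, which couples Shank and Dlg4 to actin, and had 29 counts in replicate 1 and 1 in replicate 2. Within the 10 groups of genes with more than 1 member, 37 pairs were compared, and 11 had ratios whose intervals excluded 1 in both libraries in the same direction. All 11 did so per kilobase of whole transcript, and 9 of them on the isoforms of longest coding sequence, the exceptions being Dlg2 with Dlg4 and Dlgap2 with Dlgap4.

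The libraries were compared gene by gene with an exact binomial test, which compares the reads of these 2 libraries and no condition. Of the 21 genes tested, 20 did not pass the Benjamini-Hochberg threshold of 0.05 over all 5436 tested genes. The gene that passed was Dlgap3, lower in replicate 2. With 27 and 0 counts it met the count filter through replicate 1 alone, the library where it is high. A filter of at least 1 count in each library left it untested, and 0 members were then called. Over all tested genes 4.14% were called, and over the coding genes 0.956%. All 21 are coding genes, so the second share is the matching background. The 1 of 21 is near the first share and above the second, but a single call is too few to set the 21 genes apart. With 73.2 CPM in replicate 1 and no count in replicate 2, Dlgap3 stood there at no more than 0.48 times its replicate 1 level, the upper end of the exact 95% interval, or at least 2.07-fold lower (exact binomial test with Benjamini-Hochberg adjustment, p = 0.0285). This call was lost when coding genes alone were tested and scaled (adjusted p = 0.186, exact binomial test) and with a preset biological coefficient of variation of 0.2 (adjusted p = 0.0556, edgeR), under which 0 of the 21 genes and 2.41% of all tested genes were called. Over the alternatives of the exact binomial test its adjusted p ran from 0.000151 with isoforms summed to 0.578 on the isoform of median count.

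At an unadjusted p under 0.05, 4 of the 21 genes differed, where 9.6% of all tested genes and 5.62% of coding genes did. These were Dlgap3, Baiap2 and Nlgn3, lower in replicate 2, and Nrgn, higher there. Lower coding genes were 1.87% of those tested and higher ones 3.76%. Nrgn stood at 1.502 times its replicate 1 level (exact interval 1.12 to 2.00; adjusted exact binomial p = 0.104). Nlgn3 stood at 0.39 times (0.16 to 0.82; adjusted exact binomial p = 0.167). Baiap2 stood at 0.11 times, with an interval from 0.0028 to 0.69 that reflects its single count (adjusted exact binomial p = 0.152). Like Dlgap3, Baiap2 met the count filter through replicate 1, with 29 counts there. The other 17 genes had log2 ratios between -0.76 and 0.38. The median log2 ratio of the 21 genes was -0.11, with 9 higher and 12 lower in replicate 2, beside 0.0041 for all tested genes, and it stayed at -0.11 with Dlgap3 set to its limit. With library totals in place of TMM the medians fell by about the same amount, to -0.32 for the 21 genes and -0.20 for all tested genes.

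**Figure D2:**
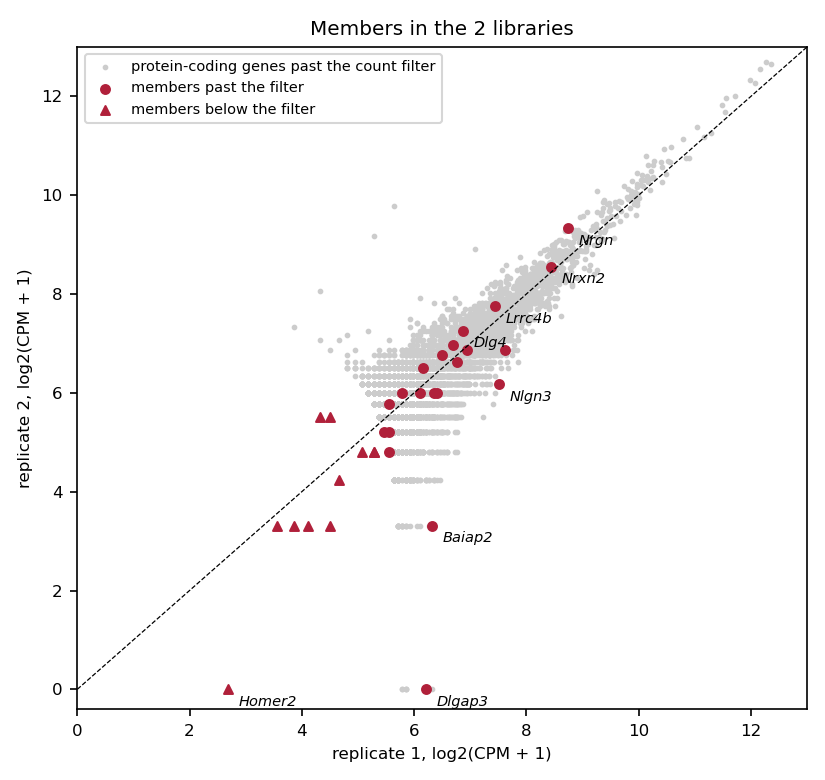
Level of each gene in replicate 1 and replicate 2 on log2(CPM + 1), members in red (circles past the count filter, triangles below it) over coding genes past the filter in grey, with the line of equality. Most members follow the line, while Dlgap3 (27 and 0 counts), Baiap2 (29 and 1) and Nlgn3 (67 and 8) lie below it.

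Other genes of the same synaptic roles, from a list of 73 names of which 71 were matched, were at a similar level. Over the 70 of these read on an isoform with a coding sequence the median density was 21.0, beside 19.0 for the 32 genes, and 39 of the 71 passed the count filter. None of these 39 was called between the libraries by the adjusted exact binomial test or by edgeR with the preset coefficient of variation, and 4 had an unadjusted p under 0.05, 1 higher and 3 lower in replicate 2. The higher one, Ppp1r9a, was read on Ppp1r9a-007, an isoform without a coding sequence that held 10 and 10 counts, and it is named because of that. The 3 of highest density were the adhesion genes Cadm4 at 330 ± 22.8, Adgrl3 at 244 ± 26.0 and Cadm3 at 244 ± 13.3 CPM per kilobase (each SD, n = 2). The value of Adgrl3, a latrophilin, rests on an isoform with a coding sequence of only 204 nucleotides and is not comparable with the others. Cadm4 and Cadm3, cell adhesion molecules of the nectin-like family, exceeded every one of the 32 genes except Nrgn. The 22 glutamate receptor genes, whose proteins the scaffolds hold in place, had a median density of 25.1 over the 21 read on an isoform with a coding sequence. The 34 genes of the presynaptic release machinery had a median of 117, and 31 of them passed the filter. These medians are descriptions without a test, and the lists differ in coding length, with medians of 2760 nucleotides for the receptors and 1590 for the release genes. The other synaptic genes held 0.747% of replicate 1 (0.718 to 0.776) and 0.589% of replicate 2 (0.547 to 0.633). Release genes held 0.805% (0.775 to 0.835) and 0.698% (0.652 to 0.746), and receptors 0.183% (0.169 to 0.197) and 0.142% (0.122 to 0.165). Within each list the 2 Wilson intervals did not overlap, and the cause was not tested.

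**Figure D3:**
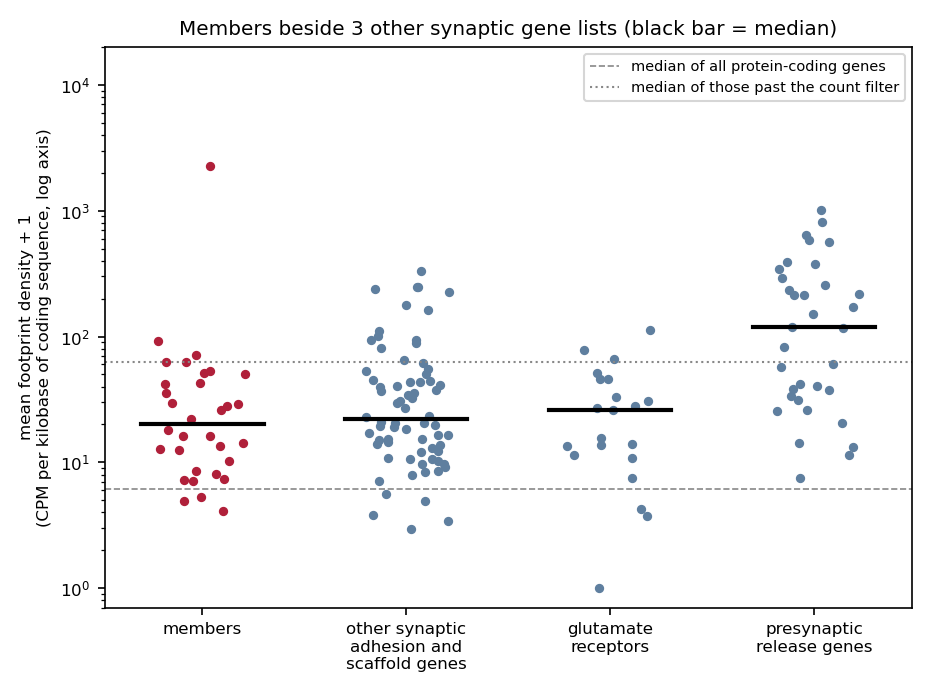
Mean footprint density plus 1 (log axis) of the 32 members, 70 other synaptic adhesion and scaffold genes, 21 glutamate receptor genes and 34 presynaptic release genes, each point a gene and each bar a median. The medians of the first 3 lists lie between 19.0 and 25.1 and that of the release genes at 117, while the dashed and dotted lines mark 5.09 for all coding genes and 62.3 for those past the count filter.

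Isoforms show where on a gene the fragments lay only in part. How a fragment that fits several isoforms was counted, on each of them or on 1 chosen at random, is not given in the sources used here. Over 88 genes, pairs of coding isoforms of equal coding length and nearly equal untranslated regions rarely had identical counts, in 6.82% of pairs in replicate 1 and 19.3% in replicate 2. Their squared difference averaged 0.39 and 0.37 of their summed count, where independent placement gives 1 and full sharing gives 0. This scatter is used below for pairs of isoforms that differ mainly in the 5' untranslated region. The comparisons of isoforms of different coding length are descriptions without a test. Of the 10 members with at least 40 counts, 5 had a coding isoform with under 50% of the highest isoform's count: Dlg3, Dlg4, Nlgn2, Nrxn2 and Lrrc4b.

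The Nrxn2 isoforms of intermediate coding length held more counts per coding length than the longest ones, and the shortest held fewer. The isoform Nrxn2-001, with 5112 coding nucleotides, had 128 and 42 counts, or 25.0 and 8.22 counts per kilobase of coding sequence. Nrxn2-004, with 1983 coding nucleotides, had 87 and 26 counts, or 43.9 and 13.1 per kilobase. Nrxn2-003, with 1062, had 57 and 19, or 53.7 and 17.9. Counts cover whole transcripts, and the untranslated regions of Nrxn2-003 are longer than its coding sequence. Per kilobase of whole transcript Nrxn2-003 had 17.4 and 5.78 counts, Nrxn2-004 24.8 and 7.42, and Nrxn2-001 19.2 and 6.30. By that measure Nrxn2-003 was not above Nrxn2-001. The shortest isoforms, Nrxn2-012 with 648 and Nrxn2-014 with 618 coding nucleotides and no annotated untranslated regions, had 9.26 and 4.63 and 8.09 and 6.47 counts per kilobase, from 3 to 6 counts each. Nrxn3 in replicate 1 had 9.54 counts per kilobase on Nrxn3-001 (4716 coding nucleotides) and 20.1 on Nrxn3-010 (1293). In replicate 2 these values were 2.76 and 2.32, from 13 and 3 counts. In Lrrc4b the isoforms of 2130, 702 and 656 coding nucleotides had 30.05, 27.1 and 25.9 counts per kilobase of coding sequence in replicate 1. In replicate 2 they had 11.3, 5.70 and 7.62, the last 2 from 4 and 5 counts.

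Nlgn2 has isoforms that differ in annotated length only in the 5' untranslated region. Nlgn2-001 and Nlgn2-002 have the same coding length of 2511 nucleotides and the same length of 3' untranslated region, and their annotated 5' untranslated regions are 976 and 411 nucleotides. The first had 72 and 13 counts and the second 47 and 7. The extra 25 counts in replicate 1 were 3.71 times the SD expected from isoform scatter, and the extra 6 in replicate 2 were 2.17 times. The table gives no position of a fragment and does not say whether the shorter region is nested in the longer one, so where the extra counts lay is not known.

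Pairs of isoforms with coding lengths within 10% of each other, nearly equal 3' untranslated regions and 5' untranslated regions that differ by at least 100 nucleotides were then collected from all genes, a rule chosen after the Nlgn2 values were seen. Such a pair with at least 40 counts existed for 278 genes. The isoform with the longer 5' region was higher by more than 2 scatter SDs in 16.9% of them, and lower by as much in 3.96%. It held the higher count in 63.7%. For a gene with several such pairs, that with the largest difference in 5' length was used. Among the members, Nlgn2, Dlg4, Nrxn2 and Dlgap3 had such a pair, and the first 3 were more than 2 scatter SDs higher. Dlg4 had a second pair, Dlg4-001 with Dlg4-003, which was 1.87 scatter SDs higher and so under that limit. Dlg4-001 had 43 and 17 counts against 31 and 9 on Dlg4-002, with 5' regions of 454 and 130 nucleotides. Nrxn2-001 had 128 and 42 against 107 and 32 on Nrxn2-013, with 486 and 112. Dlgap3 went the other way, with 20 and 1 counts on the isoform with the longer region and 27 and 0 on the other. Nlgn2 stood at percentile 95.9 of the 278 genes.

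Homer1 makes long forms with a coiled coil that pairs Homer proteins and short activity-induced forms that lack it. It fell below the limit of 40 counts and is described because its values were seen. The isoforms with a coding sequence of 1101, 1113 and 1065 nucleotides had 5 and 2, 5 and 1, and 3 and 1 counts. Those of 702, 582 and 561 coding nucleotides had 17 and 3, 14 and 1, and 9 and 2. These 3 shorter isoforms also have the longest annotated 5' untranslated regions of the gene, at 1196, 1541 and 803 nucleotides. Other short isoforms, with 5' regions of 20 to 195 nucleotides, had 0 to 5 counts in replicate 1. The table gives no position of a fragment, so counts in the short reading frame and in the untranslated regions cannot be told apart. The density of Homer1 given above, on the isoform of 702 coding nucleotides, has the same limit.

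**Figure D4:**
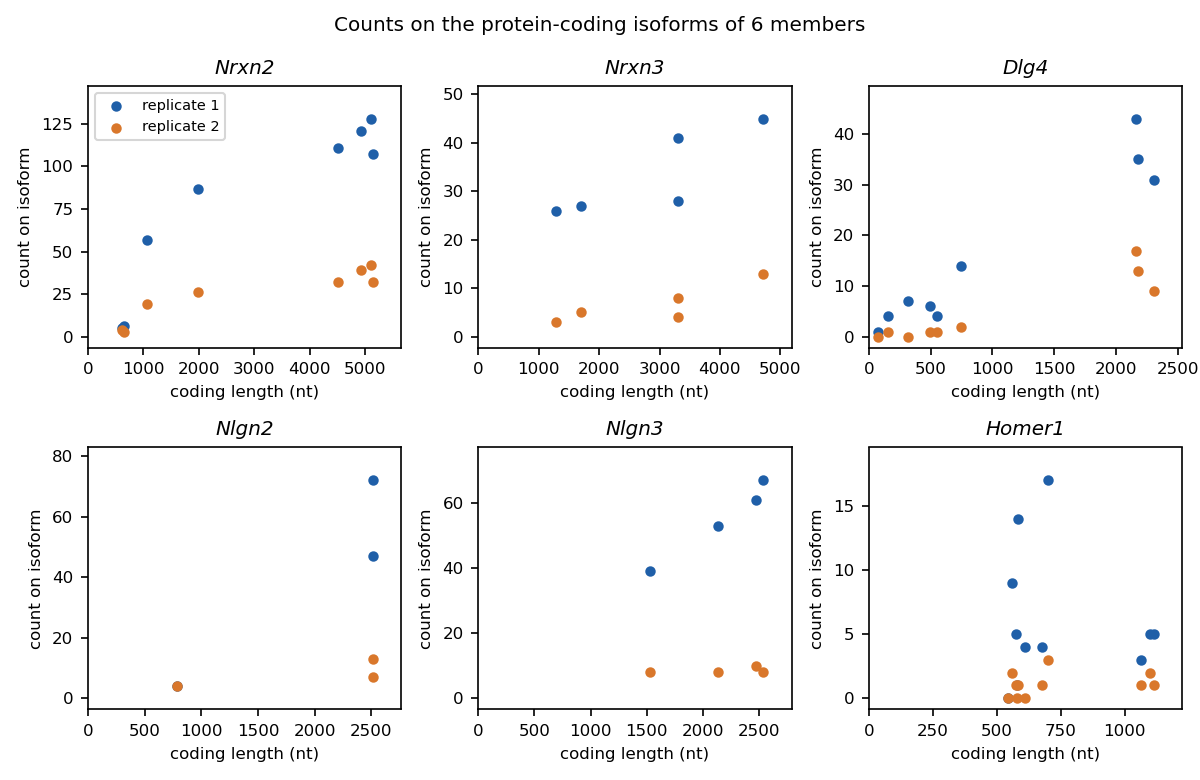
Count on each protein-coding isoform against its coding length in nucleotides for 6 members, replicate 1 in blue and replicate 2 in orange. Nrxn2 isoforms of 1062 and 1983 coding nucleotides hold 57 and 87 counts in replicate 1 beside 128 for that of 5112, and the highest Homer1 count lies on an isoform of 702 coding nucleotides.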

How the data were processed

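The authors deposited 1 table of whole-number footprint counts per transcript for 109463 mouse transcripts, with the lengths of each transcript and its regions in nucleotides, per the file header. The submitters' processing notes name Trimmomatic 0.36, Bowtie2 2.2.6, SAMtools and the genome build GRCm38.p4. The counting tool, annotation release and filters are not given in the sources used here, and no coordinates or sequences are printed. Columns were matched to replicates by number. Each gene was represented by its isoform of highest summed count. How this treats genes with many isoforms depends on how shared fragments were counted, which is not given in the sources used here. Gene symbols of all 32 genes agreed between the table and the name table.

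CPM were computed with TMM (edgeR 4.0.16) over genes averaging 10 or more counts, which made 1 count worth 2.71 CPM in replicate 1 and 8.93 in replicate 2. Log2 ratios are of replicate 2 over replicate 1 on log2(CPM + 1), which understates changes of low genes. With 2 libraries of 1 group no quasi-likelihood test was possible, so a 2-sided exact binomial test was used, adjusted over all 5436 tested genes. It was tried on simulated data with counting noise only, which cannot give the rate of false calls under other variation. There it called 30% of genes set to differ by 2-fold, 60% at 5-fold and 80% at 10-fold, so many differences would be missed. Single levels carry exact Poisson 95% intervals, density ratios exact conditional binomial ones, and a count of 0 allows 3 counts. Alternatives were other scalings (library totals, DESeq2 1.42.0 size factors), count filters, isoform rules, lengths, coding genes alone, a preset dispersion and each replicate left out. Named genes are all members, the 3 densest related genes, and isoforms under 50% of the highest for members with 40 counts. The genes and lists were chosen with earlier results of these data known.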

Additional observations from a re-analysis of the deposited data

How the results depend on the processing

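The number of members called between the libraries, 1, became 0 with at least 1 count in each library or a mean of at least 50 counts (both leave Dlgap3 out by construction), 0 among coding genes alone, 0 on the coding isoform of median count and 0 with the preset coefficient of variation. It became 2 with library totals, which added Nlgn3, and 4 with isoforms summed, which repeats a fragment if it was counted on several isoforms (the authors' setting is not given in the sources used here). The members reaching the filter fell from 21 to 2 with a mean of at least 50, and rose to 30 with isoforms summed. Per whole transcript the median density of the members was 11.9 in place of 19.0, its percentile among filtered coding genes 16.9 in place of 12.1, and the density of Nrgn, still the highest, 369 in place of 2260. That percentile became 43.9 among coding genes with at least 1 count in each library, and ran from 11.3 to 17.7 with either replicate left out. The members' share of counts, 0.278% over both libraries, became 0.443% with isoforms summed and 0.359% of coding counts alone. The log2 density ratio of Dlg3 to Dlg4, -0.59, became -0.20 on isoforms of longest coding sequence and 0.067 on the isoforms of median count, so its sign depends on the isoform. Members with a low isoform went from 5 to 3 with a limit of 25%. Where no construction is named, the cause was not tested. The 11 pairs of members resolved in both libraries became 9 on isoforms of longest coding sequence and 14 per whole transcript. These settings for pairs and the isoform of median count were added after seeing the data. No paired analysis was possible because the series has only 1 group. Depth limits most comparisons, since 10 of the 32 members reached 10 counts in replicate 2.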
